A study of Rattus norvegicus with 6 samples.

Results

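The cyclins, the cyclin-dependent kinases (CDKs), the E2F transcription factors and the pocket proteins were examined as 1 group of 40 genes, together with the phosphatases, kinases and adaptor proteins that act on CDKs. Members were found by gene symbol in the platform annotation. A named probe set was found for 34 of the 40, 1 for each, among 15037 genes measured in all. Cdc25c, Cdk7, E2f2, E2f5, E2f8 and Rb1 matched none, by symbol or gene ID, and were left out.

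The cells were tracheal epithelial scrapings, which the labels treat as basal cells, from Sprague Dawley rats (wild-type males, 12 weeks of age), and the labels describe 3 replicate lines, each pooled from 3 rats. At isolation each line was divided between the culture media BEGM (bronchial epithelial growth medium) and EpiX. Every pool therefore gave cells to both media. RNA was taken after 8 days from 3 cultures in BEGM and 3 in EpiX, and each culture gave 1 array. The comparison asks how the levels of these genes differ between the media in cells with no other difference in genotype or treatment in the labels.

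A cell divides by passing through G1, S (DNA synthesis), G2 and mitosis (M), and each step is driven by a CDK bound to its cyclin. D cyclins with Cdk4 and Cdk6, and then E cyclins with Cdk2, phosphorylate the pocket proteins, which releases E2F factors to switch on genes of DNA synthesis. Cyclin A with Cdk2 and Cdk1, and cyclin B with Cdk1, then carry the cell through S phase and into mitosis. In the airway lining, basal cells are the stem cells that divide to replace the other epithelial cells.

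Values are the deposited signals on a scale taken as log2, listed in the order of arrays 1, 2 and 3 of a medium, and differences are EpiX minus BEGM on that scale. A level of one gene cannot be set against a level of another, because each probe set has its own brightness. A gene is said to have risen or fallen only at a Benjamini-Hochberg adjusted p under 0.05 by limma over all 15037 genes, which 869 genes reached (5.78%). Of these, 395 rose (2.63%) and 474 fell (3.15%). With each array centred on its median, which moved the median of all differences from 0.00 to 0.13, the counts were 560 and 409. BEGM array 1 lay between the media on the main axis of variation, with a score of -7.24 against -54.8 and -73.2 for the other BEGM arrays and 34.2 to 53.9 for the EpiX arrays.

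The basal identity of the cultures was checked on 10 markers, of which 8 had a probe set. Of these 4 rose (2.63% of all genes did). The mean level over the 8 markers was 11.46 to 12.04 on the BEGM arrays and 13.51 to 13.71 on the EpiX arrays. The basal keratin Krt14 was bright in both media (16.38 to 16.85 in BEGM and 16.75 to 17.13 in EpiX), and the basal factor Tp63 rose by 2.15, while the basal surface receptor Ngfr was dim (4.69 to 5.37 over all arrays). Of 6 leukocyte markers 1 fell by limma (3.15% of all genes did), Cd74 (-1.31, adjusted p = 0.041, and 0.0526 with the sample number as a block). The pan-leukocyte Ptprc was at 3.78 to 4.14 over all arrays, but the macrophage marker Cd68 was at 8.65 to 11.36, with a difference of 1.04 that did not pass. Of 6 markers of ciliated cells 0 were called. The factor Foxj1 was at 3.78 to 4.62, but the tubulin Tubb4b was at 15.39 to 16.08, and Tppp3 differed by 1.16 without overlap (adjusted p = 0.0833). Of 6 endothelial markers 0 were called, and the list mean was 4.95 to 5.18 in BEGM and 4.44 to 4.58 in EpiX. The mean level over 7 measured fibroblast markers was 6.82, 7.48 and 10.24 in BEGM and 5.59, 5.64 and 6.13 in EpiX. By limma 0 of the 7 were called, with 4 lower at an unadjusted p under 0.05 (11.4% of all genes were). With the sample number as a block 3 were called lower (4.39% of all genes were). Of 6 smooth muscle and cartilage markers 2 fell (3.15% of all genes did). They were Cnn1 (from 10.59, 13.53 and 13.29 to 5.20, 5.92 and 5.28) and Acta2 (from 11.63, 13.00 and 12.92 to 9.49, 9.54 and 9.77). The list mean was 7.22 to 7.95 in BEGM and 5.84 to 5.93 in EpiX. Of 5 secretory markers 2 rose (2.63% of all genes did), Pigr (2.34) and Cyp2f4 (1.74). Scgb1a1 spanned 8.49 to 13.49 over all arrays, and the list mean was 6.42 to 7.87 in BEGM and 7.55 to 9.07 in EpiX. The part of these cells in the results below was not tested. In RNA from whole cultures, fewer cells of a type and less RNA per cell cannot be told apart.

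Of the regulators of S phase, G2 and mitosis, 5 of 13 rose in EpiX and all 13 had a difference above 0. Of the 9 regulators of G1, 3 had a difference above 0 and 6 below. Over all 15037 genes, 7548 had a difference above 0 and 7489 below. Of the 34 measured members, 5 rose (2.63% of all genes did) and 0 fell by limma, and 29 did not pass; 10 were higher and 2 lower at an unadjusted p under 0.05, where 11.0% of all genes were higher and 11.4% lower. All 5 that rose belong to the 13 measured S and G2/M regulators, and they were the mitotic cyclin Ccnb2, the S and G2 cyclin Ccna2, the mitotic kinase Cdk1, its activating phosphatase Cdc25b and its inhibitory kinase Wee1. All 3 EpiX arrays lay above all 3 BEGM arrays for 12 members (13.5% of all genes did so) and below them for 2 (14.5%). The median difference was 0.70 over the S and G2/M regulators, -0.28 over the 9 G1 and G1/S regulators and 0.07 over the 9 measured E2F, DP and pocket protein genes, against 0.00 over all genes. The median over the G1 regulators was -0.16 after median centring of the arrays. With the sample number as a block 4 members rose, against 3.94% of all genes, and 8.33% of all genes were called in either direction.

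**Figure D1:**
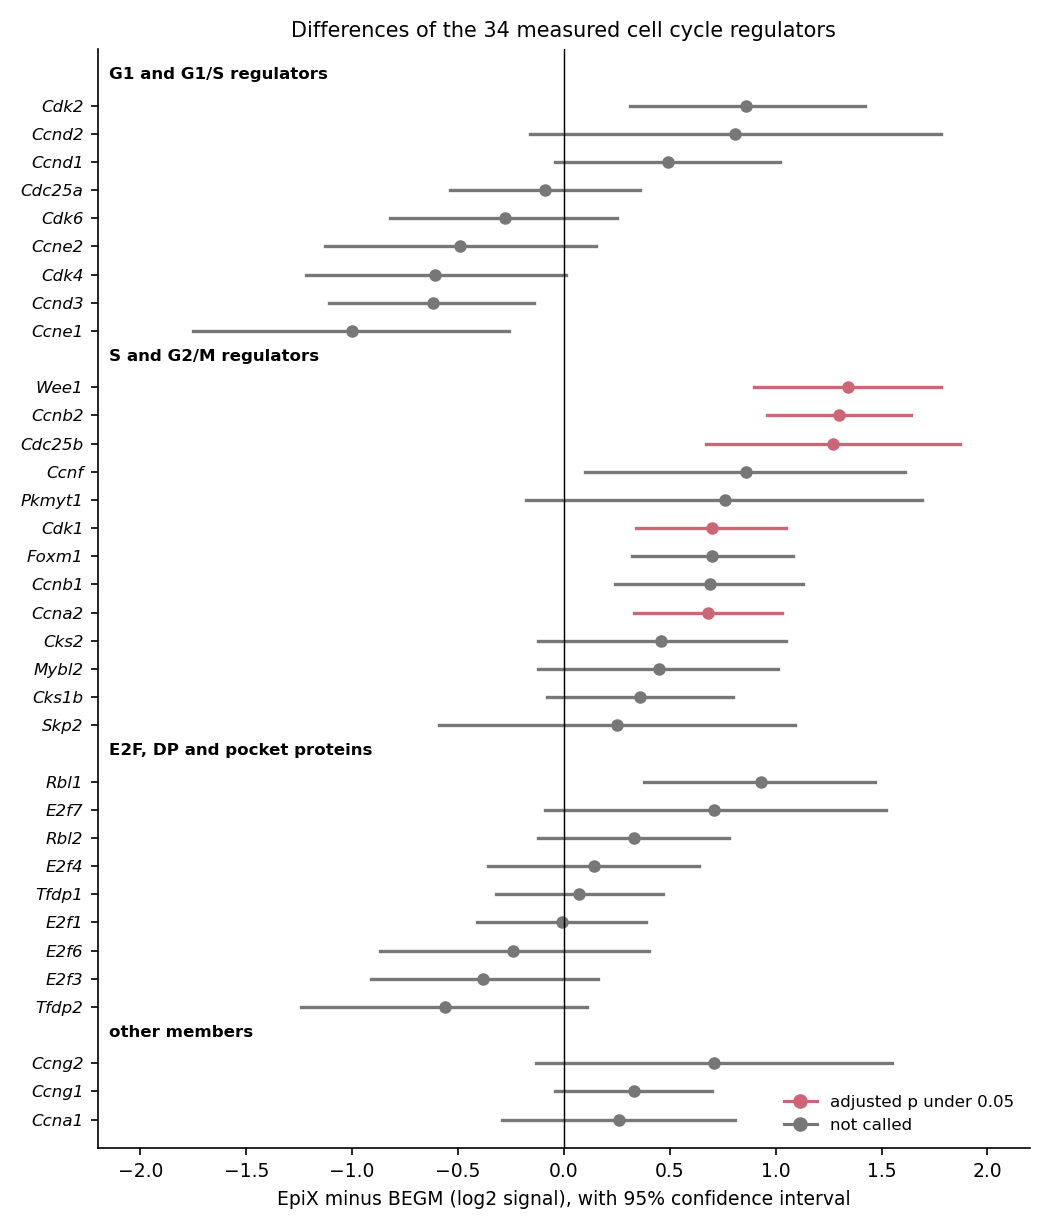
Differences between the media for the 34 measured members, EpiX minus BEGM on the log2 scale (x axis), with points for the difference and lines for its 95% confidence interval by limma. The 13 S and G2/M regulators all lie to the right of 0, from 0.25 to 1.34, and the 5 that passed are drawn in red, while the G1 and G1/S regulators span -1.0 to 0.86.

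Cyclin B binds Cdk1 to form the kinase that starts mitosis. Ccnb2 was at 11.93, 11.62 and 11.88 in BEGM and at 13.18, 13.09 and 13.07 in EpiX. The groups were more than 1 log2 unit apart at their closest, and Ccnb2 rose by 1.30 ± 0.14 (SE, n = 3 per medium), or 2.47-fold (adjusted p = 0.00711). This probe set (TC0100004167.rn.2) needs care, because its ID carries the number of chromosome 1, whereas RefSeq places Ccnb2 on chromosome 8 and lists the pseudogenes Ccnb2-ps2 on chromosome 1 and Ccnb2-ps1 on chromosome 18. Of 14830 named probe sets with such a number, 14762 (99.5%) carry that of their gene. Signal from Ccnb2 and from its copies cannot be told apart here, and without Ccnb2, a check made after its value was seen, 4 of 33 members rose and the median over the other 12 S and G2/M regulators was 0.69. RefSeq lists named copies for 8 of the measured members in all, among them Cdk1.

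The other B cyclin, Ccnb1, was at 11.94, 11.96 and 12.07 in BEGM and at 12.34, 12.72 and 12.98 in EpiX. Its groups did not overlap either, but the EpiX arrays were spread over a wider range and the difference of 0.69 ± 0.19 did not pass (adjusted p = 0.0863). Cdk1, the catalytic partner of both B cyclins, was at 11.73, 11.86 and 11.91 in BEGM and at 12.34, 12.58 and 12.68 in EpiX. It rose by 0.70 ± 0.15, or 1.62-fold (adjusted p = 0.0453). Ccna2, which acts with Cdk2 in S phase and with Cdk1 in G2, was at 12.76, 12.97 and 12.86 in BEGM and at 13.46, 13.44 and 13.72 in EpiX. Every EpiX array was above every BEGM array, and Ccna2 rose by 0.68 ± 0.15 (adjusted p = 0.0467), which became 0.0645 with the sample number as a block. The F-type cyclin Ccnf, the substrate adaptor of an SCF ubiquitin ligase in G2, was at 11.39, 11.14 and 11.35 in BEGM and at 11.65, 11.90 and 12.91 in EpiX, so the difference of 0.86 ± 0.32 lay largely in EpiX array 3 and did not pass (adjusted p = 0.173).

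Cdk1 is held inactive by phosphates that the kinases Wee1 and Pkmyt1 add and the Cdc25 phosphatases remove. Wee1 was at 9.07, 9.65 and 9.33 in BEGM and at 10.86, 10.59 and 10.61 in EpiX. It had the largest difference among the 34 members, a rise of 1.34 ± 0.19, or 2.53-fold (adjusted p = 0.0127). Cdc25b, the phosphatase that acts on cyclin-CDK complexes at the entry to mitosis, was at 7.69, 8.40 and 8.61 in BEGM and at 9.69, 9.43 and 9.38 in EpiX. The lowest EpiX array was above the highest BEGM array, with BEGM array 1 lower than the other BEGM arrays, and Cdc25b rose by 1.27 ± 0.25, or 2.41-fold (adjusted p = 0.0368). Pkmyt1, the membrane-bound relative of Wee1, overlapped between the media (8.07, 8.59 and 8.87 against 8.49, 9.30 and 10.01), although EpiX was higher in all 3 same-numbered pairs, and its difference of 0.76 ± 0.40 did not pass (adjusted p = 0.318, and 0.0755 with the block).

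Foxm1 and Mybl2 encode transcription factors that switch on the genes of G2 and mitosis. Foxm1 was at 7.73, 7.83 and 7.90 in BEGM and at 8.31, 8.48 and 8.77 in EpiX, with no overlap. Its difference of 0.70 ± 0.16 was as large as that of Cdk1 but did not pass by limma (adjusted p = 0.0555). It passed with each array centred on its median (0.0343), after quantile normalization (0.0458) and with array weights (0.0308). It did not pass with the block (0.0541), with trended and robust variance (0.0965) or without any 1 array (0.067 to 0.185). Mybl2 was at 12.18, 11.95 and 12.16 in BEGM and at 12.06, 12.62 and 12.96 in EpiX, where array 1 lay within the BEGM range, and its difference of 0.45 ± 0.24 did not pass (adjusted p = 0.33).

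Skp2, the F-box protein that targets the CDK inhibitor p27 for destruction, and its cofactor Cks1b overlapped between the media. Skp2 differed by 0.25 ± 0.36 (adjusted p = 0.744) and was highest on the number 3 array of each medium (7.33 in BEGM and 7.73 in EpiX). Cks1b differed by 0.36 ± 0.19 (adjusted p = 0.317). Cks2, the CDK-binding paralog of Cks1b, differed by 0.46 ± 0.25 (adjusted p = 0.324), with a 95% interval from -0.12 to 1.05 that does not exclude a change of the size seen for Cdk1.

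**Figure D2:**
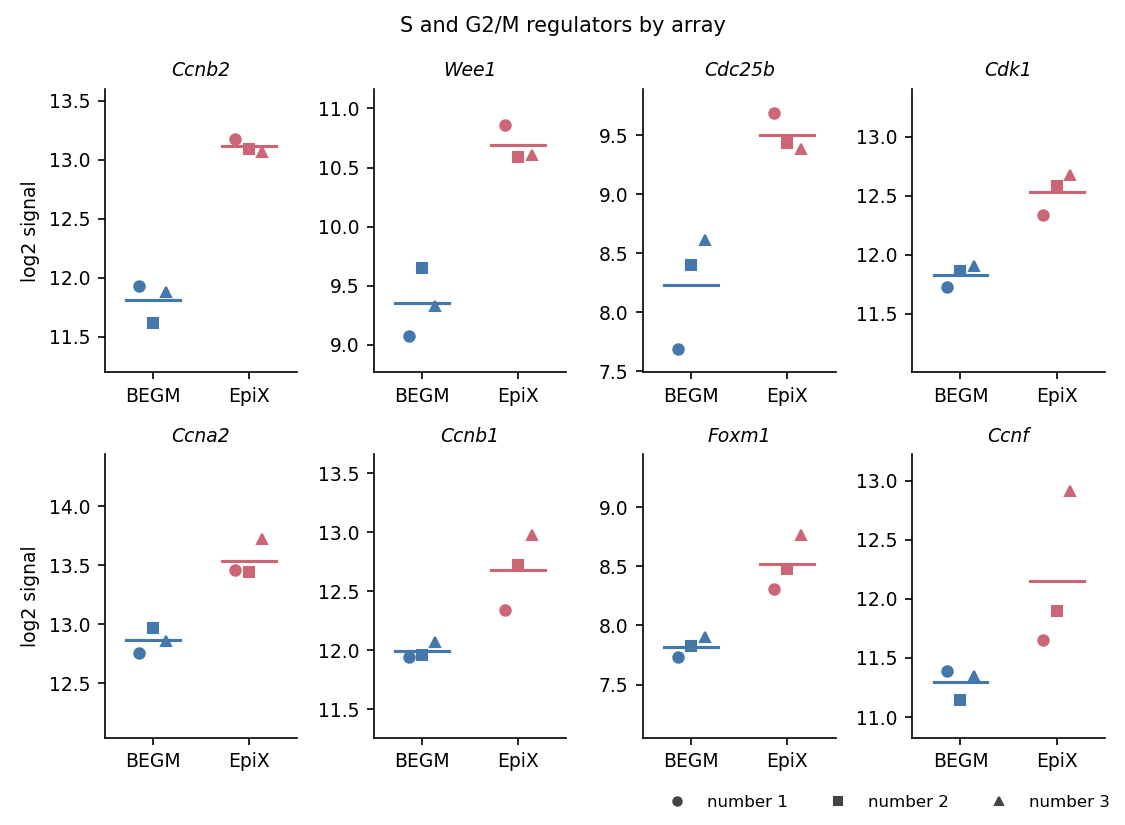
Log2 signal (y axis, 1 range per gene) of 8 S and G2/M regulators on the BEGM (blue) and EpiX (red) arrays, with 1 point per array, its shape giving the sample number, and a bar at the mean of 3. All EpiX points lie above all BEGM points in each of the 8 panels, and for Ccnf the number 3 array in EpiX (12.91) lies well above the other EpiX points.

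The calls depended on single arrays more than the sizes did. Over the fits that left out 1 array or both arrays of a number, the difference ran from 1.21 to 1.36 for Ccnb2, from 1.11 to 1.53 for Wee1, from 0.90 to 1.52 for Cdc25b, from 0.62 to 0.79 for Cdk1 and from 0.59 to 0.78 for Ccna2. Ccnb2 lost its call without EpiX array 2 (adjusted p = 0.0531). Wee1 lost it without EpiX array 1 (0.062) or 2 (0.0713) and without number 3 of both media (0.0741). Cdc25b lost it without BEGM array 2 (0.11), without EpiX array 1 (0.131), 2 (0.14) or 3 (0.0843) and without number 3 of both media (0.0743). Cdk1 (0.0546 to 0.18) and Ccna2 (0.0572 to 0.148) lost it without any 1 of the 6 arrays, and also without both arrays of any number. Dropping BEGM array 1, 2 or 3 gave 6, 2 or 3 members that rose, and dropping EpiX array 1, 2 or 3 gave 1, 0 or 2. In the same fits 988, 81 or 221 and then 71, 38 or 181 of all 15037 genes rose. With all arrays 395 did. With number 2 dropped from both media, limma called 0 of all genes. At an unadjusted p under 0.05 there were then 9 of the 34 members and 1582 of all 15037 genes.

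Many genes of G2 and mitosis carry a short element near their start, the cell cycle genes homology region (CHR, TTTGAA or TTCGAA), through which the DREAM and MuvB complexes bind, often downstream of CCAAT boxes. Sequences from RefSeq (build GRCr8) were therefore set beside the results for the members that rose. A window from 250 bases before to 50 bases after the start was found for 27 of the 40 members. Windows of Ccnb2, Cdk1 and Cdc25b, which rose, and of Ccne1, the G1 member with the lowest difference, are shown over the 150 bases before the start. Capitals mark the CHR letters and the CCAAT box, the latter read as CCAAT or, on the other strand, as ATTGG.
Ccnb2, chr8:79981659-79981808, minus strand: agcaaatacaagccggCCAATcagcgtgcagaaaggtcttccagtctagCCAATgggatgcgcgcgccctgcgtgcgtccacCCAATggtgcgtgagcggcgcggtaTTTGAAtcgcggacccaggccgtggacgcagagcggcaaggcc
Cdk1, chr20:19265143-19265292, plus strand: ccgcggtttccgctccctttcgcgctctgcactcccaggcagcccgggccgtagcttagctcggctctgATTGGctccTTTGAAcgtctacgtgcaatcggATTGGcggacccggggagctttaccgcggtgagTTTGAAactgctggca
Cdc25b, chr3:138860023-138860172, plus strand: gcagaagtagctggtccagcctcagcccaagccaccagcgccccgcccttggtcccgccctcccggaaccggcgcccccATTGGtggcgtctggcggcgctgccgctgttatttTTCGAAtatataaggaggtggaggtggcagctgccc
Ccne1, chr1:99927910-99928059, minus strand: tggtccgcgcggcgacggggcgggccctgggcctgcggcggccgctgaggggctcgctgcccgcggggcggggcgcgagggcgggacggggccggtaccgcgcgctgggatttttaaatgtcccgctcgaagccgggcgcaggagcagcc
In Ccnb2 the CHR letters began 43 bases before the start, downstream of CCAAT boxes at -134, -101 and -68, and a further TTTGAA lay upstream of them at -214, outside the stretch shown. In Cdk1 they began at -72 and -16, with reversed CCAAT boxes at -81 and -49, and in Cdc25b at -36 with a reversed CCAAT box at -71. The Ccne1 window held neither, but CCAAT was in 3 of the 5 G1 and G1/S windows (Ccnd3, Cdc25a and Cdk2). It was in 8 of the 10 S and G2/M windows and in 37.5% of all windows, or 37.7% of those of tested genes.

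Over both strands of the 300-base windows, TTTGAA or TTCGAA was found in 7 of the 10 S and G2/M members that had a window, namely Ccnb2, Ccnf, Cdc25b, Cdc25c, Cdk1, Cks1b and Cks2, and all 7 also held CCAAT. It was found in 0 of 5 G1 and G1/S members and in 4 of 8 E2F, DP and pocket protein members (E2f3, Rbl2, Tfdp1 and Tfdp2), of which E2f3 also held CCAAT. Of the 4 remaining members 1, Ccng1, held both. Among all 33469 windows 19.7% held it, and 7.95% held it together with CCAAT. Among the 12924 windows of tested genes these shares were 16.7% and 6.9%. The E2F letters TTCCCGC or TTGGCGC, of which the second can overlap a reversed CCAAT box, were in 6.26% of all windows and in 9.59% of those of tested genes. Among the 27 members with a window, those of Cdc25a, Cdk2, Cdk1, E2f3, E2f7 and Rb1 held them. Ccnb1, which lacked the CHR letters, held CCAAT at -82 and -50. Ccna2, Wee1 and Foxm1 were among the 13 members with no window in the table. These are matches of letters and not measured binding sites.

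The regulators of G1 differed among themselves in direction. By limma, 0 of 9 passed, and at an unadjusted p under 0.05 1 was higher (Cdk2) and 2 were lower (Ccnd3 and Ccne1), against 11.0% and 11.4% of all genes. The D cyclins are the link from growth factors to the cycle. Ccnd1 was at 13.70, 13.33 and 14.17 in BEGM and at 14.20, 14.28 and 14.18 in EpiX. The groups did not overlap, but BEGM array 3 came within 0.01 of the lowest EpiX array, and the difference of 0.49 ± 0.22 did not pass (adjusted p = 0.257). Ccnd2 was at 16.43, 14.74 and 15.21 in BEGM and at 16.38, 16.40 and 16.02 in EpiX. BEGM array 1 was as high as the EpiX arrays, and the difference of 0.81 ± 0.41 (adjusted p = 0.304) became a called rise of 1.30 without that array (adjusted p = 0.011) and dropped to 0.45 without BEGM array 2 (adjusted p = 0.605). Ccnd3 went the other way, at 14.16, 14.40 and 14.48 in BEGM and at 13.37, 13.75 and 14.05 in EpiX, with no overlap. The -0.62 ± 0.21 between them missed the threshold (adjusted p = 0.135).

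Of the kinases that partner the D cyclins, Cdk4 was at 15.15, 15.64 and 15.90 in BEGM and at 14.59, 14.97 and 15.32 in EpiX. It was lower in EpiX in all 3 same-numbered pairs, but the groups overlapped and the difference of -0.61 ± 0.26 did not pass (adjusted p = 0.232, and 0.0679 with the block). Cdk6 was at 15.07, 14.85 and 14.24 in BEGM and at 14.52, 14.46 and 14.35 in EpiX, a difference of -0.28 ± 0.23 (adjusted p = 0.53) with BEGM array 3 below every EpiX array.

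The E cyclins and their kinase Cdk2 differed in opposite directions. Ccne1 was at 10.06, 10.18 and 10.03 in BEGM and at 8.55, 8.87 and 9.83 in EpiX. It was steady in BEGM and lower on EpiX arrays 1 and 2 than on array 3, and its difference of -1.0 ± 0.32 did not pass (adjusted p = 0.122), while without EpiX array 3 it was a called fall of -1.38 (adjusted p = 0.0246) and without EpiX array 1 it was -0.74 (adjusted p = 0.297). Ccne2 was at 11.45, 11.80 and 11.84 in BEGM and at 10.64, 11.33 and 11.63 in EpiX, a difference of -0.49 ± 0.27 (adjusted p = 0.344). Cdk2 was at 10.79, 10.63 and 10.74 in BEGM and at 11.20, 11.48 and 12.08 in EpiX, with no overlap. Its difference of 0.86 ± 0.23 did not pass (adjusted p = 0.0833). Within each array, Cdk2 minus Ccne1 was 0.73, 0.45 and 0.72 in BEGM and 2.64, 2.61 and 2.25 in EpiX, so the spacing of this pair of probe sets shifted by 1.87 between the media. Cdk2 and Ccne1 had the highest and lowest difference of the 9 G1 and G1/S regulators, so a wide shift follows from the choice of the pair. The shift was not tested. Cdc25a, the phosphatase that activates Cdk2 at the start of S phase, was at 10.69, 10.74 and 10.72 in BEGM and at 10.33, 10.57 and 10.99 in EpiX. Its difference of -0.09 ± 0.19 (adjusted p = 0.839) turned to 0.04 with each array centred on its median.

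**Figure D3:**
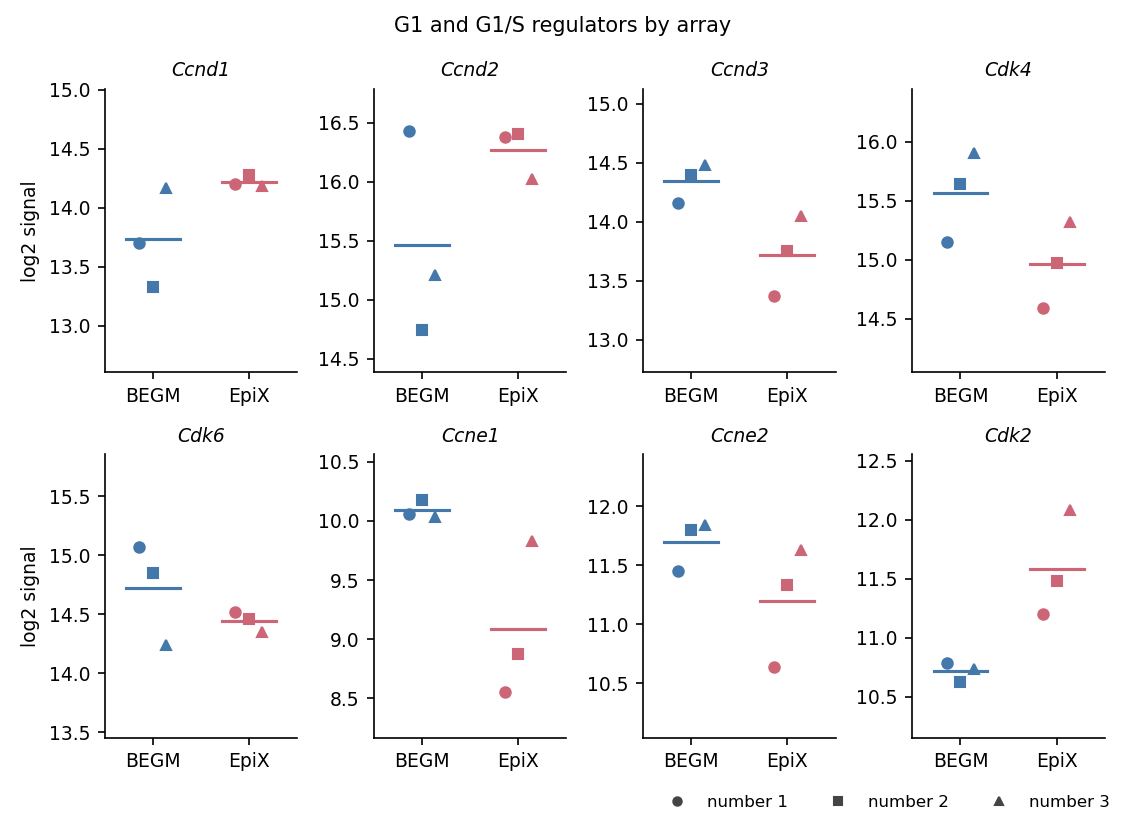
Log2 signal (y axis, 1 range per gene) of 8 G1 and G1/S regulators on the BEGM (blue) and EpiX (red) arrays, with 1 point per array, its shape giving the sample number, and a bar at the mean of 3. Ccnd1 and Cdk2 lie higher in EpiX and Ccnd3 and Ccne1 lower, each without overlap, and the points of the other 4 genes overlap.

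The lists were also set against each other on the same array. The mean over the 13 S and G2/M members was 10.33, 10.51 and 10.59 in BEGM and 10.99, 11.18 and 11.53 in EpiX, while that over the 9 G1 and G1/S members was 13.06, 12.92 and 13.04 and then 12.64, 12.90 and 13.16. The first minus the second was -2.73, -2.41 and -2.44 in BEGM (mean -2.53 ± 0.17, SD) and -1.65, -1.73 and -1.63 in EpiX (-1.67 ± 0.05). It shifted by 0.86 between the media, and the EpiX arrays lay closer together in it than in either list mean. The BEGM arrays lay further apart in it (SD 0.17) than in the S and G2/M mean (0.14) or the G1 and G1/S mean (0.07). With the D cyclins, Cdk4 and Cdk6 alone as the G1 list the shift was 0.80. The size of each value depends on the brightness of the probe sets and only the shift between arrays can be read. The shift leaves out any offset shared by all genes of an array, and it was not tested, because the genes were chosen with earlier results of these data known.

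**Figure D4:**
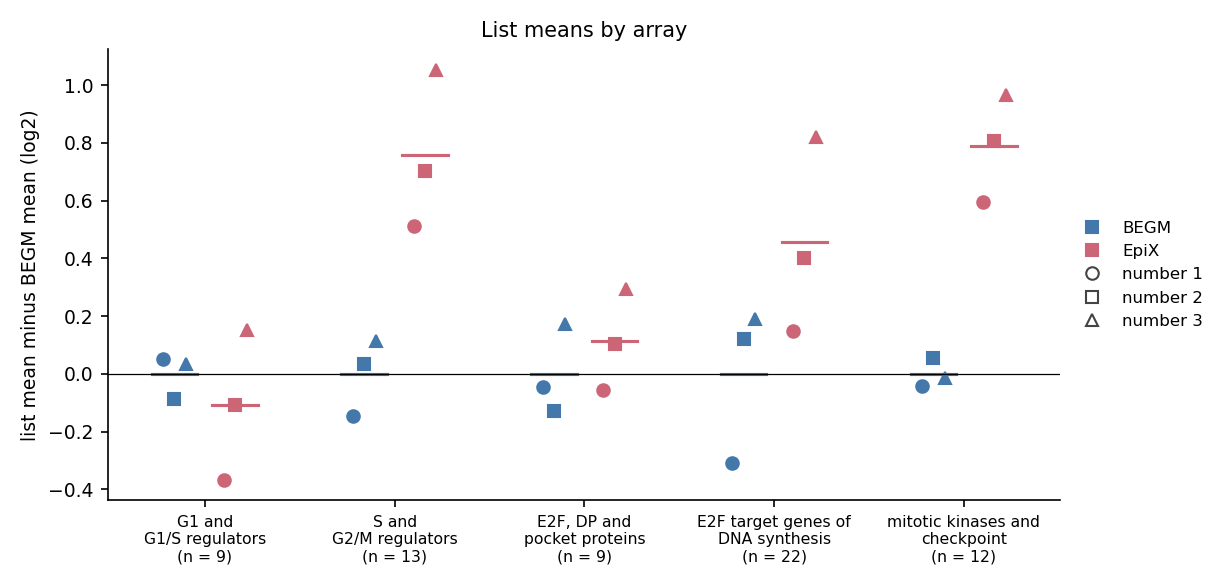
Mean log2 level of 5 gene lists on each array, drawn as the distance from the mean of the 3 BEGM arrays of that list (y axis, log2), with blue points for BEGM, red points for EpiX, shapes for the sample number and bars for the mean of 3. The EpiX points lie above all BEGM points for the S and G2/M regulators and for the mitotic kinases, and overlap them for the G1 regulators, the E2F and pocket proteins and the E2F target genes, with EpiX array 3 highest and array 1 lowest in each list.

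Within EpiX the arrays were not alike. EpiX array 3 was the highest EpiX array for 23 of the 34 members and array 1 the lowest for 23, and for the E2F target genes described below array 3 was the highest for 22 of 22. In BEGM, array 1 was the lowest for 19 of the 34 members and array 3 the highest for 16.

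The E2F factors switch on the genes of DNA synthesis once the pocket proteins release them, and DP proteins are their partners. By limma, 0 of the 9 measured genes of this group passed. At an unadjusted p under 0.05, 1 was higher (Rbl1) and 0 were lower (11.0% and 11.4% of all genes). The activator E2f1 was dim in both media (4.85, 4.95 and 5.22 in BEGM and 4.79, 5.03 and 5.17 in EpiX), close to 4.50, the limit of the dimmest 25% of genes. Its difference of -0.01 ± 0.17 (adjusted p = 0.985) was 0.12 with each array centred on its median and 0.07 after quantile normalization. The activator E2f3 differed by -0.38 ± 0.22 (adjusted p = 0.387) and was lowest on EpiX array 1 (7.49 against 8.14 to 8.50 on the other 5 arrays).

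E2f7, an atypical E2F that represses and is itself switched on in late G1 and S phase, was at 10.10, 9.92 and 10.51 in BEGM and at 10.20, 10.95 and 11.52 in EpiX. It was higher in EpiX in all 3 same-numbered pairs, but EpiX array 1 lay within the BEGM range and the difference of 0.71 ± 0.34 did not pass (adjusted p = 0.279). Dropping EpiX array 1 gave 1.06, and dropping array 3 gave 0.40. The repressor-type factors E2f4 (0.14 ± 0.21) and E2f6 (-0.24 ± 0.27) and the partners Tfdp1 (0.07 ± 0.17) and Tfdp2 (-0.56 ± 0.29) had adjusted p values from 0.307 to 0.851. E2f4 was nevertheless higher in EpiX in all 3 pairs, from 11.47, 11.90 and 12.09 to 11.72, 11.97 and 12.19.

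The pocket proteins Rbl1 (p107) and Rbl2 (p130) hold E2F factors in check, Rbl2 chiefly in resting cells and Rbl1 in dividing ones, where it is itself an E2F target. Rbl1 was at 10.75, 9.90 and 10.52 in BEGM and at 11.24, 11.33 and 11.37 in EpiX. The EpiX arrays lay within 0.13 of each other and above all BEGM arrays, but the difference of 0.93 ± 0.23 did not pass (adjusted p = 0.0671). It was called without BEGM array 1 (1.11, adjusted p = 0.0187) and with each array centred on its median (1.05, adjusted p = 0.0457), and was 0.68 without BEGM array 2 (adjusted p = 0.116). Rbl2 was at 8.76, 9.06 and 9.15 in BEGM and at 9.54, 9.03 and 9.40 in EpiX, a difference of 0.33 ± 0.19 (adjusted p = 0.366) with overlapping groups.

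Of the remaining members, Ccng1, a p53-induced cyclin with no CDK of its own in the cycle, was at 15.60, 15.18 and 15.43 in BEGM and at 15.66, 15.77 and 15.77 in EpiX (0.33 ± 0.16, adjusted p = 0.275). Ccng2, a cyclin linked to withdrawal from the cycle, was at 8.04, 7.04 and 6.83 in BEGM and at 8.42, 8.02 and 7.62 in EpiX. It was higher in EpiX in all 3 pairs, with a difference of 0.71 ± 0.36 (adjusted p = 0.296) that was called without BEGM array 1 (1.08, adjusted p = 0.0354) and was 0.48 without BEGM array 3 (adjusted p = 0.548). Ccna1, the cyclin A of the germ line, was dim in both media (5.46 to 5.81 in BEGM and 5.42 to 6.21 in EpiX; 0.26 ± 0.23, adjusted p = 0.573).

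Further genes of the cycle were taken from lists of their functions. Of 26 E2F target genes of DNA synthesis, 22 were measured, and 3 rose (2.63% of all genes did), 0 fell by limma and 19 did not pass. At an unadjusted p under 0.05, 8 were higher and 0 lower (11.0% and 11.4% of all genes). Their median difference was 0.43. The polymerase subunit Pola1 (1.14 ± 0.18, adjusted p = 0.0169), the ribonucleotide reductase subunit Rrm2 (1.12 ± 0.23, adjusted p = 0.0402) and the replicative helicase subunit Cdc45 (0.95 ± 0.13, adjusted p = 0.0121) rose. Cdc45 was at 8.09, 8.22 and 8.09 in BEGM and at 9.01, 9.09 and 9.15 in EpiX, with narrow groups far apart, whereas Rrm2 had an adjusted p of 0.0529 with the block. Thymidylate synthase, Tyms, was the 1 measured target with a difference below 0 (-0.43 ± 0.33, adjusted p = 0.515), and is named here after its value was seen. The list median was 0.14 without EpiX array 3 and 0.22 without BEGM array 1. The count that rose was 0 without EpiX array 1 or 2, where 71 or 38 of all genes rose. It was 1 without BEGM array 2 (81 of all genes) and 2 without BEGM array 3 (221) or EpiX array 3 (181).

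Of 14 mitotic kinases and checkpoint genes, 12 were measured, and 6 rose (2.63% of all genes did), 0 fell and 6 did not pass. Their median difference was 0.89, and for 11 of the 12 all EpiX arrays lay above all BEGM arrays (13.5% of all genes). The centrosome kinase Nek2 was at 9.73, 9.98 and 9.33 in BEGM and at 10.91, 10.81 and 10.66 in EpiX and rose by 1.12 ± 0.20 (adjusted p = 0.0245). The spindle checkpoint kinases Ttk (1.11 ± 0.23, adjusted p = 0.0434) and Bub1 (0.92 ± 0.14, adjusted p = 0.0165) and the chromosomal passenger kinase Aurkb (0.99 ± 0.18, adjusted p = 0.026) also rose, as did Mad2l1 and Chek2, the latter with an adjusted p of 0.0566 with the block. The exception to the separation was Plk1, the polo kinase of mitotic entry, at 14.01, 14.78 and 14.65 in BEGM and at 14.37, 14.66 and 15.14 in EpiX (0.24 ± 0.28, adjusted p = 0.671), again named after its value was seen. The count that rose was 0 without BEGM array 2 (81 of all genes rose) or without EpiX array 1, 2 or 3 (71, 38 or 181). It was 3 without BEGM array 3 (221), while the median stayed between 0.78 and 0.97 when single arrays or numbers were left out.

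The APC/C and SCF ubiquitin ligases mark cyclins and their inhibitors for destruction. Of 21 of their genes 19 were measured, and 0 rose, 1 fell (3.15% of all genes did) and 18 did not pass, with a median of 0.01. The gene that fell was Btrc, the F-box protein that marks Wee1 among others for destruction, from 9.16, 9.62 and 9.85 in BEGM to 8.22, 8.73 and 8.39 in EpiX (-1.10 ± 0.23, adjusted p = 0.041). It lost its call without BEGM array 2 (0.146) or 3 (0.0936) and without EpiX array 1 (0.138), 2 (0.0976) or 3 (0.107). Of 7 genes of the MuvB core and DREAM complex 5 were measured and 0 were called by limma, with a median of 0.19. At an unadjusted p under 0.05, 1 was higher and 0 were lower (11.0% and 11.4% of all genes). The DNA-binding subunit Lin54, which contacts the CHR, differed by 0.80 ± 0.23 (adjusted p = 0.101, and 0.036 with the block), and Mybl1 by 0.51 ± 0.28 (adjusted p = 0.355).

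Cyclins and CDKs with tasks in transcription and elsewhere gave 0 calls by limma among 16 measured genes of 20, with 1 higher and 5 lower at an unadjusted p under 0.05 (11.0% and 11.4% of all genes). Their median was -0.18, and the list mean was 11.46, 11.46 and 11.49 in BEGM and 11.31, 11.26 and 11.26 in EpiX. The largest differences were those of Cdk5, a kinase best known from neurons (-0.78 ± 0.18, adjusted p = 0.0547), and Cdk17 (-0.62 ± 0.16, adjusted p = 0.0734). After median centring of the arrays the list median was -0.06.

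The inhibitors of the CDKs split by gene, and all 7 were measured. By limma, 1 fell (3.15% of all genes did), 0 rose and 6 did not pass. At an unadjusted p under 0.05, 4 were higher and 2 lower (11.0% and 11.4% of all genes). With the sample number as a block 3 rose and 1 fell, against 3.94% and 4.39% of all genes. Cdkn2a, whose products restrain Cdk4 and Cdk6 and stabilise p53, was at 10.14, 9.58 and 8.44 in BEGM and at 5.61, 6.33 and 7.0 in EpiX. It fell by 3.07 ± 0.50 (adjusted p = 0.02), the groups were far apart, and it lost its call without BEGM array 2 (0.0952) and without EpiX array 1 (0.072) or 2 (0.0976). Cdkn2b (p15), its neighbour in the genome and an inhibitor of the same kinases, was at 8.46, 8.97 and 9.61 in BEGM and at 7.82, 7.92 and 7.75 in EpiX, or -1.18 ± 0.28, which missed the threshold (adjusted p = 0.0602, 0.00804 without BEGM array 1 and 0.185 without EpiX array 2). Cdkn2b and the other 5 inhibitors are named after their values were seen.

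Cdkn1b (p27), the target of Skp2, was at 8.14, 7.18 and 7.45 in BEGM and at 9.04, 8.92 and 8.24 in EpiX (1.14 ± 0.31, adjusted p = 0.0835, and 0.0435 with the block). Cdkn1c (p57) was at 5.70, 5.40 and 5.94 in BEGM and at 6.66, 6.65 and 7.87 in EpiX (1.38 ± 0.35, adjusted p = 0.0722, and 0.0255 with the block). Cdkn2c (p18) was at 5.26, 5.87 and 6.08 in BEGM and at 6.60, 6.72 and 7.37 in EpiX (1.16 ± 0.29, adjusted p = 0.0671, and 0.0207 with the block). Each of these 3 was higher on all EpiX arrays than on all BEGM arrays (13.5% of all genes were). Cdkn2d (p19) differed by 0.63 ± 0.17 (adjusted p = 0.0767). Cdkn1a (p21), the inhibitor that p53 induces, overlapped between the media (15.69, 15.93 and 15.73 against 15.70, 15.67 and 15.64), with a 95% interval of the difference from -0.43 to 0.21.

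**Figure D5:**
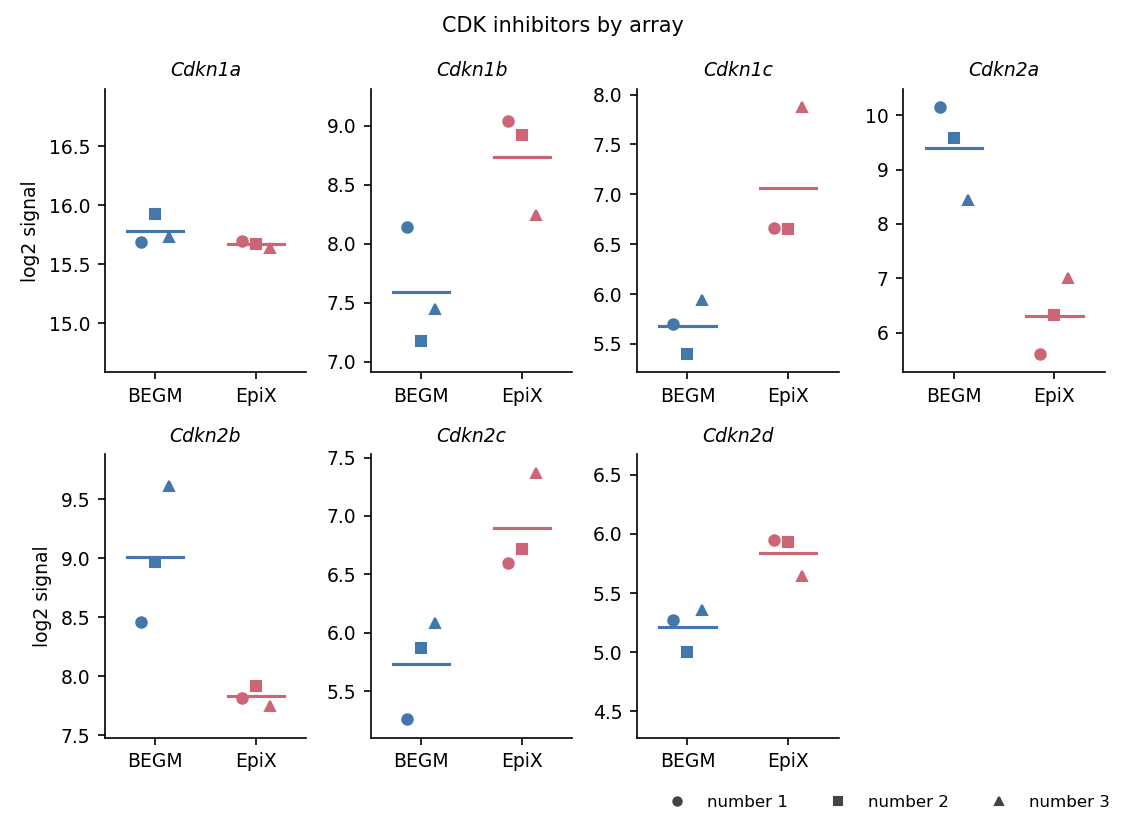
Log2 signal (y axis, 1 range per gene) of the 7 CDK inhibitors on the BEGM (blue) and EpiX (red) arrays, with 1 point per array, its shape giving the sample number, and a bar at the mean of 3. Cdkn2a and Cdkn2b lie lower in EpiX, Cdkn1b, Cdkn1c, Cdkn2c and Cdkn2d higher, and Cdkn1a overlaps.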

How the data were processed

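The authors' deposited values hold 1 log2 signal per probe set for 24834 probe sets on 6 arrays (2.62 to 18.66), and the unit was taken from the values. Biotin was the label and the Affymetrix protocol was followed, per the labels' protocols. Transcriptome Analysis Console is named, per the submitters' processing notes. Log base, normalization and centring are not given in the sources consulted, no detection calls were used, and precision is limited by the number of arrays.

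Of the probe sets, 15049 had 1 gene symbol in the platform annotation, and the brightest per gene left 15037 genes. Differences between the media, with no other term in the model, came from limma 3.58.1 in R 4.3.3 (lmFit and eBayes, 2-sided, Benjamini-Hochberg over all genes) after tests on simulated data. Plots were made with matplotlib 3.10.9. Each line was split between the media, and arrays with the same sample number in the labels were taken to be 1 line, which the labels do not state. Their deviations from the group means correlated over genes at 0.32, -0.01 and 0.32, against -0.37 to 0.16 for other pairs, and the number as a block was an alternative. The titles call number 2 of both media 3 and give number 3 none.

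Members and lists were chosen with earlier results of these data known, so lists are described by counts and medians with no test. Per-array values were given for members called in either fit and for a fixed set of main regulators. Those of Ccnf, Pkmyt1, Cdc25a, E2f4, Ccng1 and Ccng2, which lie outside that set and were not called in either fit, were also given. Differences were given for up to 4 called genes of each further list (E2F targets, mitotic kinases, ubiquitin ligases, MuvB, other cyclins and CDKs, CDK inhibitors). Alternatives were the block, quantile normalization, median centring, array weights, robust and trended variance, averaged probe sets per gene, no genes among the dimmest 25%, and leaving out arrays. Leaving out Ccnb2 was added after seeing the data. Promoter windows came from RefSeq (GRCr8).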

Additional observations from a re-analysis of the deposited data

How the results depend on the processing

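All median differences of the S and G2/M regulators were above 0 and all those of the G1 and G1/S regulators below 0 in the settings run, from 0.54 to 0.81 and from -0.48 to -0.11 with arrays left out and from 0.67 to 0.82 and from -0.28 to -0.16 otherwise. With arrays left out, members called higher numbered 0 to 6, members called lower 0 to 1 and all genes called 0 to 2089 (0 by limma without number 2, with 1582 at an unadjusted p under 0.05). With array weights, which gave EpiX array 2 the largest weight (3.57) and BEGM array 1 the smallest (0.53), 9 members were called higher and 1 lower (Ccne1), among 1987 genes. With the number as a replicate block 1252 genes and 4 members, all higher, were called, and the block changed no other call among the members than that of Ccna2. Among the genes named from the lists it also ended the calls of Rrm2 and Chek2 and added Lin54, Cdkn1b, Cdkn1c and Cdkn2c.

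Genes whose difference changed sign were not called in either setting. With arrays left out, Cdc25a ran from -0.27 to 0.06, Skp2 from -0.09 to 0.51, E2f1 from -0.09 to 0.10, E2f4 from -0.04 to 0.27, E2f6 from -0.56 to 0.14 and Tfdp1 from -0.07 to 0.17. With each array centred on its median, Cdc25a was 0.04, E2f1 0.12 and Cdkn1a 0.02, E2f1 was 0.07 after quantile normalization, and Ccna1 was -0.01 with array weights. The cause of these changes was not tested.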
